A study of Mus musculus with 36 samples.

Results

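The genes carried by the mitochondrial chromosome were read across 36 RNA sequencing libraries of the mouse anterior cingulate cortex (aCC). They were all genes of the table whose symbol starts with mt-, which gave 37 of 52636 genes: 13 that encode proteins, 2 that encode ribosomal RNAs (rRNAs) and 22 that encode transfer RNAs (tRNAs). Each of the 37 was above 0 in 36 of 36 libraries, and each passed the filter on low values that was applied before testing. Values are TPM, a transcript abundance that the authors' software computed and that is scaled for gene length and for the total of the library, so that levels of different genes can be set beside each other but the depth of each library is not recorded.

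The libraries came from right aCC punches of female mice whose strain the labels give as C57BL/6NTac-Brd1, aged 8 to 11 weeks, with 1 library for each numbered replicate. WT mice carried 2 intact copies of Brd1, and Brd1+/- mice carried 1 copy with a targeted deletion in every tissue, so an effect in the aCC cannot be assigned to these cells alone. Vehicle mice were injected with saline and IMN mice with 10 mg/kg of the antidepressant imipramine. By the study's methods, injections were given on 2 days, with tail suspension after the first and open field and forced swim after the second. Brains were taken 1 hour after the swim, in vehicle mice too. There were 8 libraries of WT vehicle and 10 of WT IMN, and 9 libraries in each of the Brd1+/- groups. The design asks how the genotype and the drug change expression. No sources used here tie the labels to litters or days.

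The mitochondrial genome is a circle with a heavy and a light strand, each of which is transcribed as a long precursor. The precursor is cut mostly at the tRNAs that lie between the other genes, and most of the released mRNAs receive poly(A) tails. The proteins are core subunits of the respiratory chain and of ATP synthase: mt-Nd1 to mt-Nd6 and mt-Nd4l belong to complex I (NADH dehydrogenase), mt-Cytb to complex III, mt-Co1 to mt-Co3 to complex IV (cytochrome c oxidase), and mt-Atp6 and mt-Atp8 to complex V (ATP synthase). The remaining subunits, and the enzymes that transcribe and translate the mitochondrial genome, are encoded in the nucleus. Neurons depend on this chain for most of the ATP that ion pumping consumes.

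Between 24685 and 25517 genes were above 0 in a library. Brd1 lay between 22.6 and 31.9 TPM in WT vehicle, between 17.9 and 27.8 TPM in WT IMN, between 13.8 and 20.9 TPM in Brd1+/- vehicle and between 13.5 and 19.4 TPM in Brd1+/- IMN, so the genotypes did not overlap under vehicle and overlapped under imipramine. A score of 7 cortical neuron genes, the mean log2(TPM + 0.5) of the list, lay between 8.45 and 9.08 in every library. Brd1+/- vehicle replicate 6 stood apart by its striatal score of 6.83, against at most 4.46 elsewhere, and its choroid plexus score of 6.08, against at most 1.09 elsewhere. Brd1+/- vehicle replicate 7 stood apart in the mitochondrially encoded genes themselves and is described with them.

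Several members share bases with a neighbour, and their sequences are shown because a read from such bases cannot be given to 1 gene by its sequence. mt-Atp8, at positions 7766 to 7969 of the plus strand in GRCm38, shares its last 43 bases, in capitals, with the start of mt-Atp6.
mt-Atp8: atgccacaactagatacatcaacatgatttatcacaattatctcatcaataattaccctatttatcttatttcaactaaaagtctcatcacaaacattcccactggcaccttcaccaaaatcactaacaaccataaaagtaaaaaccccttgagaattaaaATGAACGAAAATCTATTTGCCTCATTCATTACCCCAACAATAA
The last 60 bases of mt-Nd4l, positions 10114 to 10173, end in 7 bases that also open mt-Nd4, again in capitals.
mt-Nd4l end: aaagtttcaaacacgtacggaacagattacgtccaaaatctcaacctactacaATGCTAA
mt-Nd5 and mt-Nd6 overlap by 14 bases on opposite strands. Whether the counting used strand is not given in the sources used here, so reads from a gene and from the opposite strand of the same bases cannot be told apart for any member, among them mt-Nd6 and the 8 tRNA genes of its strand.

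The ends of the mRNA genes fall into 2 kinds, shown by the last 21 bases of 5 genes with the final codon, or what there is of it, in capitals. mt-Co1 and mt-Nd5 end in a complete stop codon.
mt-Co1 3-prime end: acctatgtaaaagtaaaaTAA
mt-Nd5 3-prime end: tactcaattaatctcgagTAA
mt-Co3, mt-Nd4 and mt-Cytb end in a single T, and in the cell the stop codon is completed by the poly(A) tail.
mt-Co3 3-prime end: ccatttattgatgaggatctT
mt-Nd4 3-prime end: taattacaggcctgacaataT
mt-Cytb 3-prime end: aaatactaaaattatatccaT
These 3 genes had mean levels of 15091, 16348 and 25494 TPM, within the range of the 10 mRNA genes with a complete stop codon (2715 to 31614 TPM).

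Mitochondrially encoded genes held a large part of the TPM in every library: a mean of 25.3%, from 21.7% in WT vehicle replicate 7 to 30.5% in WT IMN replicate 1. Of the mitochondrial TPM, the 13 mRNAs held 90.6% ± 0.925 (SD, n = 36), the 2 rRNAs 5.29% ± 0.782 and the 22 tRNAs 4.10% ± 0.199. When TPM were multiplied by gene length, which approximates the share of sequenced bases, mRNAs held 92.8%, rRNAs 6.94% and tRNAs 0.303%. Within the mRNAs, the 7 complex I genes held 42.6% ± 1.59, the 3 complex IV genes 28.5% ± 1.51, the 2 complex V genes 17.8% ± 0.512 and the complex III gene 11.1% ± 0.385.

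**Figure D1:**
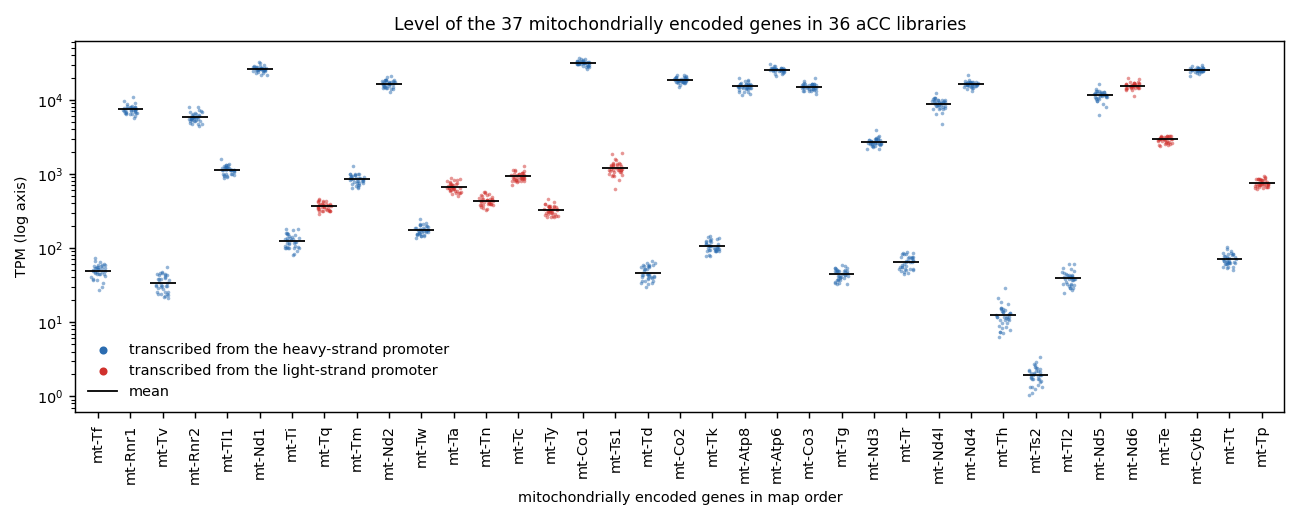
TPM on a log axis for the 37 mitochondrially encoded genes in map order, with 1 point for each of 36 libraries, the mean as a black bar and colour by the promoter of the strand. The mRNA and rRNA genes lie between 2142 and 37203 TPM, and mt-Ts2 lies lowest, between 1.03 and 3.32 TPM.

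The gene for the catalytic subunit of cytochrome c oxidase, mt-Co1 (ENSMUSG00000064351, positions 5328 to 6872), was the highest of all genes in the table, at 31614 TPM ± 2316 (SD, n = 36). It exceeded the next member, mt-Nd1, in 36 of 36 libraries. mt-Nd1, a membrane subunit of complex I, had 26218 TPM ± 2272, mt-Atp6, the proton channel subunit of ATP synthase, 25585 TPM ± 1801, and mt-Cytb, the cytochrome b of complex III, 25494 TPM ± 1690. These 3 were not separated: mt-Nd1 exceeded mt-Atp6 in 23 of 36 libraries, and mt-Atp6 exceeded mt-Cytb in 20 of 36.

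A lower tier began with mt-Co2, the subunit that takes electrons from cytochrome c, at 18624 TPM ± 1586, which lay below mt-Cytb in 36 of 36 libraries. mt-Nd2 (16616 TPM ± 1811) and mt-Nd4 (16348 TPM ± 1411), both proton-pumping subunits of complex I, had that order in 21 of 36 libraries. mt-Nd6, the only mRNA gene of the light-strand promoter, had 15600 TPM ± 1499. Its level could not be separated from those of mt-Atp8 (15273 TPM ± 1756) and mt-Co3 (15091 TPM ± 1556), since mt-Nd6 exceeded mt-Atp8 in 21 of 36 libraries and mt-Atp8 exceeded mt-Co3 in 17 of 36. As the promoter of mt-Nd6 differs and strand use is not stated, its level may hold reads of the other strand, which was not tested.

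The lowest mRNAs were complex I subunits. mt-Nd5 had 11499 TPM ± 1740 and exceeded mt-Nd4l (8892 TPM ± 1421) in 36 of 36 libraries. mt-Nd3 had 2715 TPM ± 332, below every other mRNA and below both rRNAs, and mt-Rnr2 exceeded it in 36 of 36 libraries. The rRNAs of the mitochondrial ribosome, mt-Rnr1 (small subunit, 7503 TPM ± 1018) and mt-Rnr2 (large subunit, 5863 TPM ± 873), had lower means than all mRNAs except mt-Nd3. mt-Rnr1 was the higher of them in 36 of 36 libraries and lay below mt-Nd4l in 29 of 36. Whether the libraries were made from poly(A) RNA is not given in the sources used here.

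The tRNA genes spanned from 1.95 to 2917 mean TPM. They are 59 to 75 bases long, and whether reads on them came from tRNAs or from uncut precursors was not tested. The 5 highest were mt-Te (tRNA for glutamate, 2917 TPM ± 274), mt-Ts1 (serine, 1213 TPM ± 257), mt-Tl1 (leucine, 1140 TPM ± 145), mt-Tc (cysteine, 928 TPM ± 122) and mt-Tm (methionine, 851 TPM ± 127). None of the 22 was at 0 in any library, and mt-Ts2, the other serine tRNA, was lowest with 1.95 TPM ± 0.510. The 8 tRNA genes of the light-strand promoter had a median of 714 TPM (328 to 2917), and the 14 of the heavy-strand promoter a median of 57.2 TPM (1.95 to 1140), so the ranges overlapped through mt-Tl1, mt-Tm and the lower light-strand genes.

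The serine tRNAs, at opposite ends of this range, and mt-Te are shown with the bases shared with another gene in capitals. mt-Te lies at positions 14071 to 14139 of the minus strand, next to mt-Nd6, and shares none. mt-Ts1 lies at positions 6870 to 6938 of the minus strand and overlaps mt-Co1 by 3 bases on the other strand. mt-Ts2 lies at positions 11613 to 11671 of the plus strand and shares 1 base with mt-Tl2.
mt-Te: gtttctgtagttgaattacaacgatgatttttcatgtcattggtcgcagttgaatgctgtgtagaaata
mt-Ts1: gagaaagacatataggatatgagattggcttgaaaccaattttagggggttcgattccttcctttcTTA
mt-Ts2: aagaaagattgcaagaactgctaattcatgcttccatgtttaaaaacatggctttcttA

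The nuclear genome carries copies of stretches of mitochondrial DNA, and 16 annotated pseudogenes matched a member with at least 90% identity over at least 100 bases. The tRNA genes, at 59 to 75 bases, are too short to match under this rule, so their copies were not assessed. Of these, 13 had a mean of at least 100 TPM, and the summed TPM of the 16 made up 10.4% to 14.6% of a library. A block on chromosome 1 held copies of mt-Atp6 (Gm10925), mt-Co3 (Gm28437), mt-Co2 (Gm28661), mt-Nd4l (Gm10222) and part of mt-Nd4 (Gm28439) that were 100% identical over the aligned bases. Its copy of mt-Nd3, Gm28438, differed at 1 of 345 aligned bases, T3C with positions counted from the first base of mt-Nd3. The windows below show that base in capitals, for mt-Nd3 at positions 9459 to 9481 and for Gm28438 at chr1:24613097-24613119 on the minus strand.
mt-Nd3 window: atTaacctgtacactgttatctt
Gm28438 window: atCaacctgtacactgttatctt

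In the table, 5 of these copies carried nearly the same TPM as the members. Gm28437 had a median of 100.2% of the TPM of mt-Co3 (100.1% to 100.2% over 36 libraries), Gm28661 had 100.4% of mt-Co2, Gm10222 101.5% of mt-Nd4l, Gm28438 101.8% of mt-Nd3 and Gm10925 103.2% of mt-Atp6. For comparison, the length of the member as a share of the length of the copy was 100.1% for mt-Co3, 100.4% for mt-Co2, 101.0% for mt-Nd4l, 100.9% for mt-Nd3 and 100.4% for mt-Atp6, so the TPM ratio lay furthest above the length ratio for mt-Atp6. Gm28439, identical to the part of mt-Nd4 that it covers, had 75.9% of the TPM of mt-Nd4 (58.5% to 78.7%), and Gm29216 (99.8% identity to part of mt-Co1) had a median of 81.7% of mt-Co1. Copies with lower identity had smaller shares, though not in the order of their identity: Gm13341 (95.9% identity) had 30.5% of the TPM of mt-Co2, Gm13340 (97.6%) 17.0% of mt-Co1, Gm11408 (93.6%) 0.350% of mt-Nd6 and Gm11410 (92.9%) 0.0122% of mt-Cytb. How reads that match several places were counted is not stated, so the split between a member and its identical copy is uncertain.

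**Figure D2:**
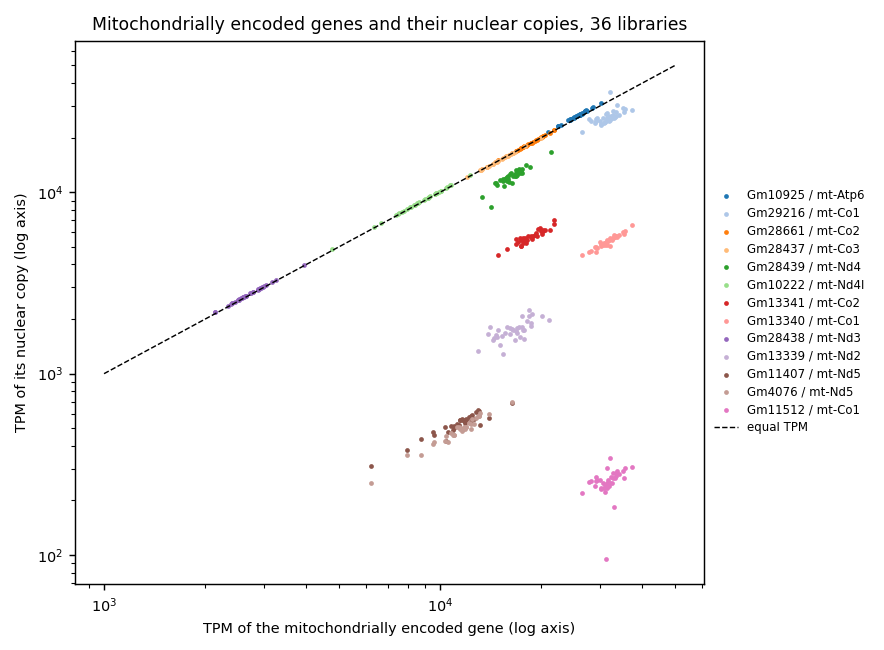
TPM of a nuclear copy against the TPM of the mitochondrially encoded gene it matches, both on log axes, for 36 libraries and the 13 copies that averaged 100 TPM or more. 5 of the copies lie along the dashed line of equal TPM, with medians of 100.2% to 103.2% of the member, and Gm29216 crosses it, at 76.1% to 112.3% of mt-Co1.

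The order of the members depends on these copies. Adding each copy to its member, an alternative chosen after the data were seen, raised the mitochondrial share to between 32.1% and 45.1% of the TPM. The TPM of a copy were added whatever its length, so the ranks hold for summed TPM only. mt-Co1 stayed highest at 63407 TPM, but 26159 TPM of that sum came from Gm29216, a copy of 492 bases against 1545. Ranks with copies weighted by length were not computed. mt-Atp6 (51987 TPM) and mt-Co2 (43023 TPM) moved to ranks 2 and 3. mt-Nd1, which has no copy of this kind among the annotated pseudogenes, moved from rank 2 to 6. mt-Co3 moved from rank 10 to 4, and mt-Nd3 stayed lowest at 5477 TPM. Among mRNA and rRNA genes, mt-Nd1, mt-Atp8, mt-Rnr1 and mt-Rnr2 had 0 such copies among the annotated pseudogenes. Of the others, only mt-Nd6 and mt-Cytb, whose copies added under 1%, moved by less than 1% when copies were added. Copies outside the annotation were not searched for, so a level without an annotated copy is not shown to be free of copies.

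The members did not vary as 1 block. The mean level of an mRNA gene varied little between libraries, with a coefficient of variation from 6.63% (mt-Cytb) to 16.0% (mt-Nd4l), against 13.6% and 14.9% for mt-Rnr1 and mt-Rnr2 and up to 34.7% for the tRNA mt-Th. After group means were subtracted, the 105 pairs among the 15 mRNA and rRNA genes had a median Pearson r of 0.52 over 36 libraries, with 54 pairs above 0.5 and 19 below 0. These correlations share the library total and are given as a description.

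The closest pairs were not all neighbours in the genome. mt-Nd4l and mt-Nd5 had r = 0.94 (Spearman's rho 0.84, and r = 0.89 without the 2 most distant libraries), and mt-Rnr1 and mt-Rnr2 had r = 0.93 (rho 0.92, and 0.91 without 2). mt-Nd2 and mt-Nd4, which lie far apart, had r = 0.89, mt-Nd4 and mt-Cytb 0.87, and mt-Co3 and mt-Nd3, which a single tRNA gene separates, 0.85 (rho 0.85, 0.84 and 0.78). The overlapping neighbours were lower, with r = 0.71 for mt-Nd4l and mt-Nd4 and 0.59 for mt-Atp8 and mt-Atp6. Values are per gene, so these r do not show that overlapping neighbours vary as separate transcripts. Some pairs had negative values: mt-Co3 and mt-Nd5 had r = -0.40 (rho -0.11), which weakened to -0.18 without the 2 most distant libraries, so it rested largely on them.

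Brd1+/- vehicle replicate 7 marked the end of this axis. It had 6242 TPM of mt-Nd5 against 10308 to 13987 TPM in the other 8 libraries of its group, and 4775 TPM of mt-Nd4l against 7810 to 10720 TPM. In the same library mt-Co3 (19946 TPM against 13166 to 15987), mt-Nd3 (3926 TPM against 2382 to 3027), mt-Rnr1 (10867 TPM against 6759 to 8066) and mt-Rnr2 (7993 TPM against 5119 to 5912) were highest. The log2 ratio of mt-Nd5 to mt-Co3 was -1.68 there, followed by -1.03 in WT IMN replicate 8 and -0.97 in WT IMN replicate 7, and it was highest in WT IMN replicate 1 at 0.10. Low and high ends were thus found in more than 1 group.

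**Figure D3:**
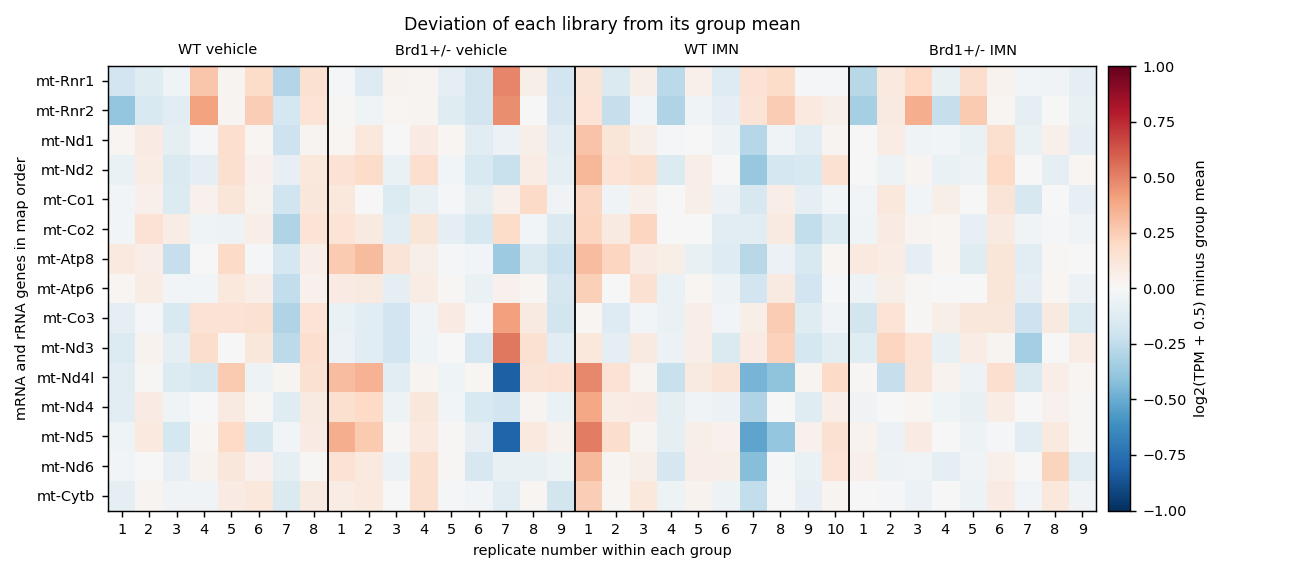
Deviation of log2(TPM + 0.5) from the group mean for the 15 mRNA and rRNA genes in map order (rows) in 36 libraries (columns, numbered by replicate within each group), on a colour scale from -1 to 1. Brd1+/- vehicle replicate 7 is low in mt-Nd4l and mt-Nd5 and high in mt-Co3, mt-Nd3 and both rRNAs, and WT IMN replicate 1 is above its group mean in all 15, most in mt-Nd5 and mt-Nd4l.

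The balance of mt-Nd5 and mt-Co3 moved with the level of nuclear genes of all 5 respiratory chain complexes. Against the mean log2(TPM + 0.5) of 36 nuclear complex I genes, its r after subtraction of group means was -0.76 (n = 36; rho -0.68, and -0.66 without the 2 most distant libraries). Against 11 nuclear complex IV genes it was -0.76 (rho -0.73, and -0.66 without 2). The values were -0.70 for complex III, -0.64 for complex V and -0.54 for complex II, so the relation was not particular to the complexes of these 2 genes. Brd1+/- vehicle replicate 7 had the highest complex I score of all libraries, 7.03, and the highest complex IV score, 8.70. The part of RNA quality in this axis was not tested, as no value per library was at hand.

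The summed level of the mRNAs was most like that of the copies described above. Among 12487 nuclear genes that averaged 5 TPM or more, the 5 with the highest r (log2 TPM, group means subtracted, 36 libraries) were Gm10925 (0.91), Gm13340 (0.79), Gm28439 (0.77), Gm13341 (0.76) and Gm28661 (0.69), all copies of members. The highest gene that was no copy was Btbd3 (r = 0.57), named after its value was seen, and the median over all genes was -0.26. A larger mitochondrial share lowers the TPM of all other genes by construction.

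For the effect of the genotype under vehicle, the median difference of the members was small. The mitochondrial share averaged 25.1% ± 1.43 (SD, n = 9) with Brd1+/- and 24.6% ± 1.61 (n = 8) with WT, a difference of 0.50 percentage points (SE 0.74), with overlapping groups. In limma with Benjamini-Hochberg adjustment over all genes, 0 of 37 members passed an adjusted p of 0.05 (0% of all 25572 genes did), 0 had an unadjusted p under 0.01 (0.700% of all genes) and 0 one under 0.05 (3.75% of all genes). Brd1 itself was among the genes without a call, although its ranges did not overlap and the study called it in the aCC with edgeR. A lack of calls here therefore does not show a lack of change. The members' median log2 difference was 0.02, with 26 of 37 above 0, against a median of -0.02 over all genes. The 13 mRNAs had differences from 0.01 to 0.10, with 13 of 13 above 0, a count that fell to 7 of 13 with quantile normalization.

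The smallest p-values of the vehicle comparison belonged to tRNAs. mt-Tg (glycine) lay between 33.2 and 58.6 TPM with a median of 36.7 in Brd1+/- vehicle, and between 39.8 and 56.8 TPM with a median of 45.5 in WT vehicle, so the groups overlapped. Its log2 difference was -0.22 (SE 0.11; exact permutation p = 0.0763, limma adjusted p = 1.00). mt-Th (histidine) differed by 0.37 (SE 0.21; exact permutation p = 0.122) and mt-Tv (valine) by 0.25 (SE 0.15; exact permutation p = 0.151), each with an adjusted p of 1.00 in limma.

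Under imipramine, the genotypes also overlapped in every member. The share was 26.0% ± 1.03 (n = 9) with Brd1+/- and 25.5% ± 2.27 (n = 10) with WT, a difference of 0.49 points (SE 0.80). Again 0 of 37 members passed an adjusted p of 0.05 in limma (0% of all genes), 0 had an unadjusted p under 0.01 (0.614% of all genes) and 0 one under 0.05 (3.23%). Brd1 was not called here either. The median over the members was 0.01, with 19 of 37 above 0, and over all genes 0.01. mt-Nd6 lay between 15433 and 19500 TPM with a median of 16310 in Brd1+/- IMN (mean 16728 TPM ± 1216), and between 11306 and 19023 TPM with a median of 15614 in WT IMN (mean 15282 TPM ± 2016). The WT range thus enclosed most of the Brd1+/- values. Its log2 difference of 0.14 (SE 0.10) had an exact permutation p = 0.0697 and an adjusted p of 1.00, with 9 of 9 Brd1+/- libraries above the WT mean. mt-Tv differed by -0.25 (SE 0.15; exact permutation p = 0.139) and mt-Tt (threonine) by 0.16 (SE 0.11; exact permutation p = 0.189), each with an adjusted p of 1.00.

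The level of mt-Nd6, the mRNA gene of the light-strand promoter, was followed relative to the heavy-strand mRNAs. Strand use is not stated, and several heavy-strand mRNA genes have identical nuclear copies. The ratio therefore cannot be read as the balance between the strands. The log2 ratio of mt-Nd6 to the mean of the 12 heavy-strand mRNAs averaged -0.18 ± 0.053 (SD) in WT vehicle, -0.25 ± 0.097 in WT IMN, -0.21 ± 0.067 in Brd1+/- vehicle and -0.14 ± 0.098 in Brd1+/- IMN. Under imipramine the Brd1+/- mean exceeded the WT mean by 0.11 (SE 0.045), and 9 of 9 Brd1+/- libraries lay above that WT mean, although the ranges overlapped (-0.23 to 0.05 against -0.44 to -0.13). Under vehicle the difference was -0.03 (SE 0.029). As sums over chosen members these ratios are given without a test.

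**Figure D4:**
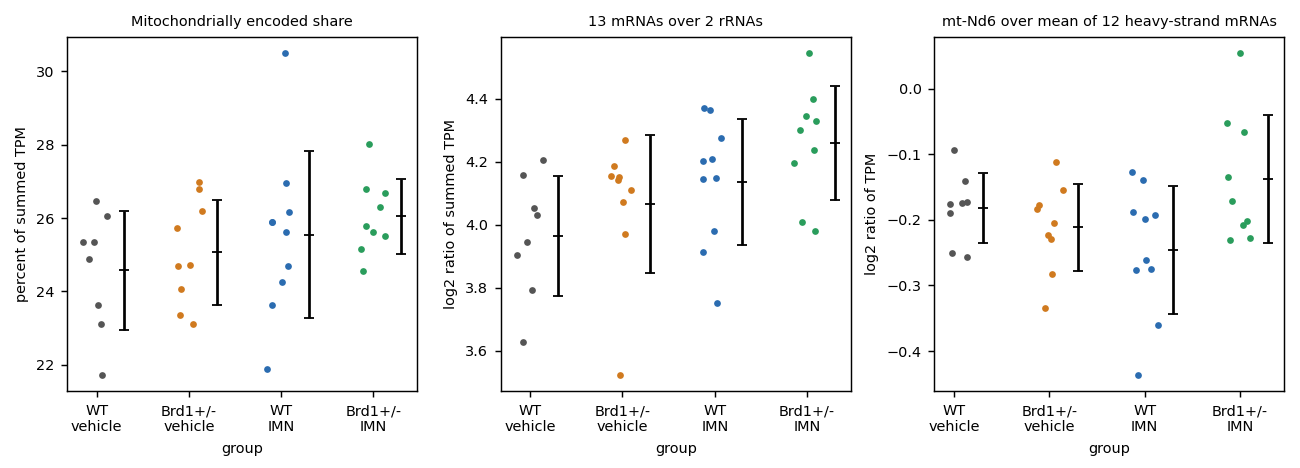
Per-library values in the 4 groups of the mitochondrially encoded share of TPM in percent (left), the log2 ratio of 13 mRNAs to 2 rRNAs (middle) and the log2 ratio of mt-Nd6 to the mean of 12 heavy-strand mRNAs (right), with the mean and SD beside the points. In each panel all groups overlap, and the mRNA to rRNA ratio has group means of 3.96, 4.06, 4.14 and 4.26 from left to right.

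In WT mice, imipramine gave the members with the smallest p-values of all comparisons. 3 of 37 members, all tRNAs and all higher, had an unadjusted p under 0.01 in limma (1.58% of all genes did, and 0.430% in the upward direction), the same 3 were the only ones under 0.05 (6.60% of all genes), and 0 passed an adjusted p of 0.05 (0% of all genes). The median over the members was 0.06, with 29 of 37 above 0, against -0.01 over all genes.

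mt-Th lay between 8.81 and 21.3 TPM with a median of 13.8 in WT IMN, and between 6.35 and 11.9 TPM with a median of 9.19 in WT vehicle. 9 of 10 treated libraries were above the vehicle mean, with a small overlap, and the log2 difference was 0.58 (SE 0.17, 95% interval 0.24 to 0.93; exact permutation p = 0.00494, limma adjusted p = 0.485). mt-Tv lay between 29.3 and 47.4 TPM with a median of 39.0 in WT IMN, and between 20.9 and 39.4 TPM with a median of 27.4 in WT vehicle. Its log2 difference was 0.46 (SE 0.13; exact permutation p = 0.00612, adjusted p = 0.486). mt-Tl2 (leucine) had 43.1 TPM ± 4.87 (n = 10) against 34.3 TPM ± 9.00 (n = 8), a log2 difference of 0.35 (SE 0.12; exact permutation p = 0.0117, adjusted p = 0.599), with 10 of 10 treated libraries above the vehicle mean for both mt-Tv and mt-Tl2.

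mt-Th and mt-Tl2 lie on either side of mt-Ts2 between mt-Nd4 and mt-Nd5, and mt-Tv lies between the rRNA genes. mt-Ts2 itself differed by 0.06 (SE 0.13). The genes of all 3 tRNAs had low values in these libraries, under 55 TPM in every library except for values of mt-Tl2 up to 61.6. mt-Th had the highest coefficient of variation of all members, 34.7%. As TPM hold no depth, the counting error at such values was not computed. Markers of oligodendrocytes were higher in WT IMN too, with 8 of 8 genes above 0, a median log2 difference of 0.66, a smallest adjusted p of 0.866 and a score that ranged from 3.91 to 7.98 in WT IMN and from 3.64 to 7.62 in WT vehicle (0 of the 8 had a median of 0 TPM). With the oligodendrocyte and striatal scores as covariates, 3 members had an unadjusted p under 0.01, against 1 with the replicate number as a block.

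In Brd1+/- mice the differences of the 3 tRNAs were smaller. Imipramine minus vehicle was 0.09 (SE 0.19) for mt-Th, -0.04 (SE 0.17) for mt-Tv and 0.13 (SE 0.14) for mt-Tl2. In the test of the difference between the genotypes, mt-Tv had an interaction of -0.50 (SE 0.22, limma unadjusted p = 0.0319, adjusted p = 1.00), mt-Th one of -0.49 (SE 0.26, unadjusted p = 0.0699) and mt-Ta (alanine) one of -0.19 (SE 0.14, unadjusted p = 0.166). 0 of 37 members passed an adjusted p of 0.05 there (0% of all genes), 0 had an unadjusted p under 0.01 (0.547%) and 1 had one under 0.05 (3.20%), with 20 of 37 above 0 and a median of 0.00 against 0.02 over all genes. A difference between the genotypes in the response of these tRNAs was therefore not detected after adjustment.

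**Figure D5:**
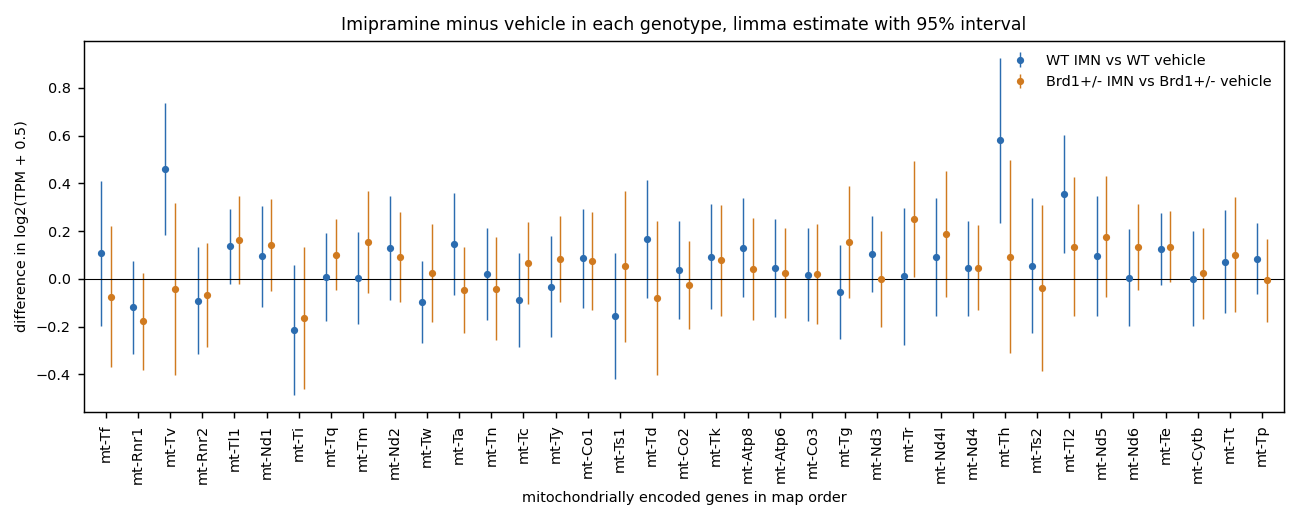
Difference in log2(TPM + 0.5) between imipramine and vehicle for the 37 mitochondrially encoded genes in map order, in WT mice (blue) and Brd1+/- mice (orange), as the limma estimate with its 95% interval. The intervals of mt-Th, mt-Tv and mt-Tl2 lie above 0 in WT mice, that of mt-Tr lies above 0 in Brd1+/- mice, and those of the 15 mRNA and rRNA genes include 0 in both.

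In Brd1+/- mice, imipramine left the members without a call as well: 0 of 37 at an adjusted p of 0.05 in limma (0.00782% of all genes, 2 in all), 0 at an unadjusted p of 0.01 (1.22%) and 1 at 0.05 (5.52%). The median was 0.05, with 25 of 37 above 0, and over all genes 0.01. mt-Tr (arginine) lay between 50.5 and 87.4 TPM in Brd1+/- IMN and between 47.0 and 74.9 TPM in Brd1+/- vehicle, with a log2 difference of 0.25 (SE 0.12; exact permutation p = 0.0578, adjusted p = 0.887). mt-Te differed by 0.14 (SE 0.071; exact permutation p = 0.0358, adjusted p = 0.920) and mt-Tl1 by 0.16 (SE 0.088; exact permutation p = 0.0791, adjusted p = 0.920). The share averaged 26.0% with imipramine and 25.1% with vehicle, a difference of 0.97 points (SE 0.59) with overlapping groups, and in WT mice the same difference was 0.98 points (SE 0.92).

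Pooled over the genotypes, imipramine was tested with the most libraries, 19 treated and 17 not. 0 of 37 members passed an adjusted p of 0.05 in limma (0.274% of all genes, 70 in all), 1 had an unadjusted p under 0.01 (3.11%) and 6 one under 0.05 (9.38%). mt-Te was 0.13 higher (SE 0.046, unadjusted p = 0.00752, adjusted p = 0.288), mt-Tl1 0.15 (SE 0.057, adjusted p = 0.339) and mt-Tl2 0.24 (SE 0.094, adjusted p = 0.357). mt-Th (0.34), mt-Nd1 (0.12) and, in the other direction, mt-Rnr1 (-0.15) completed the 6. The members' median was 0.05, with 30 of 37 above 0, against 0.00 over all genes.

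The classes differed in sign. All 13 mRNAs had positive values, from 0.01 to 0.14, and both rRNAs negative ones, -0.15 for mt-Rnr1 (SE 0.063) and -0.08 for mt-Rnr2 (SE 0.071), but 9 of 13 mRNAs were positive with quantile normalization, and 12 of 13 with the cell type scores as covariates or without Brd1+/- vehicle replicate 6. The log2 ratio of mRNA to rRNA was 3.96 ± 0.19 (SD) in WT vehicle (3.63 to 4.20), 4.06 ± 0.22 in Brd1+/- vehicle (3.52 to 4.27), 4.14 ± 0.20 in WT IMN (3.75 to 4.37) and 4.26 ± 0.18 in Brd1+/- IMN (3.98 to 4.55). Imipramine minus vehicle was 0.18 (SE 0.065) over both genotypes, 0.17 (SE 0.092) in WT and 0.20 (SE 0.095) in Brd1+/- mice, and without Brd1+/- vehicle replicate 7 the last value fell to 0.13. The values overlapped between all groups.

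The share of mt-Cytb within the mRNAs averaged lower with imipramine. It is put first because the shares of the other complexes differed less relative to their errors in the pooled comparison. Complex I genes held 42.0% ± 0.945 (SD, n = 8) of the mRNA TPM in WT vehicle, 42.5% ± 2.00 (n = 10) in WT IMN, 42.2% ± 1.82 (n = 9) in Brd1+/- vehicle and 43.7% ± 0.837 (n = 9) in Brd1+/- IMN. mt-Cytb of complex III held 11.5% ± 0.370, 10.9% ± 0.160, 11.2% ± 0.448 and 10.9% ± 0.291 in the same order. Imipramine minus vehicle for mt-Cytb was -0.50 percentage points (SE 0.14) in WT mice, with 0 of 10 treated libraries above the vehicle mean, -0.33 (SE 0.18) in Brd1+/- mice and -0.42 (SE 0.11) over both genotypes, and the groups overlapped. The level of mt-Cytb itself differed by 0.01 (SE 0.052) over both genotypes in limma, on the log2 scale. For complex I the pooled difference was 0.98 points (SE 0.51), for complex IV -0.42 (SE 0.51) and for complex V -0.15 (SE 0.17). Within Brd1+/- mice the complex I share was 1.49 points (SE 0.67) higher with imipramine, with 9 of 9 libraries above the vehicle mean. That mean was lowered by Brd1+/- vehicle replicate 7, at 37.8% where the others of its group lay between 41.2% and 43.7%. The lowest treated library, Brd1+/- IMN replicate 2, lay at 42.2%, as the vehicle mean did after rounding. The complex V share differed by -0.47 points (SE 0.24) within Brd1+/- mice, with 0 of 9 treated libraries above the vehicle mean. These shares of a sum carry no test. They also depend on how reads were split between members and nuclear copies. Adding the copies multiplied the mean TPM of mt-Co1 by 2.01 and that of mt-Cytb by 1.00. Shares of the complexes with copies added are not given here.

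The tRNA to mRNA ratio changed less. Its log2 value averaged -4.43 ± 0.075 in WT vehicle, -4.46 ± 0.083 in WT IMN, -4.49 ± 0.095 in Brd1+/- vehicle and -4.48 ± 0.074 in Brd1+/- IMN, and imipramine minus vehicle was -0.01 (SE 0.027) over both genotypes. A lower level of RNA per cell and fewer cells cannot be told apart in such punches.

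Pooled over treatments, no member was called between the genotypes. 0 of 37 passed an adjusted p of 0.05 in limma (0.00391% of all genes, 1 in all), 0 had an unadjusted p under 0.01 (0.731%) and 0 one under 0.05 (3.62%), with 22 of 37 above 0 and a median of 0.02 against -0.01 over all genes. The smallest p-values were those of mt-Tt (0.15, SE 0.078), mt-Tg (-0.11, SE 0.076) and mt-Nd6 (0.08, SE 0.056), each with an adjusted p of 1.00. The 95% intervals of the 15 mRNA and rRNA genes all lay between -0.22 and 0.25 in this comparison. In the pooled comparison of imipramine they lay between -0.28 and 0.31. Each interval concerns its own gene on the log2 scale of TPM and is not adjusted for the 15 genes.

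The nuclear genes that work with the members were read in the same fits. Of 40 genes for mitochondrial transcription, RNA processing and translation, 1 passed an adjusted p of 0.05, in the pooled comparison of imipramine, where 0.274% of all genes did: Fastkd5, which is needed for the cutting of mitochondrial precursors that no tRNA borders, was 0.25 lower on the log2 scale with imipramine pooled over genotypes (SE 0.058, adjusted p = 0.0425 in limma). In WT and Brd1+/- mice alone its log2 fold changes with imipramine were -0.23 (SE 0.071, adjusted p = 0.550) and -0.28 (SE 0.10, adjusted p = 0.826). The next smallest p-values were those of Mterf2, a factor that binds mitochondrial DNA, 0.24 in WT mice with imipramine (SE 0.071, adjusted p = 0.512), and Top1mt, the mitochondrial topoisomerase, 0.20 in Brd1+/- mice with imipramine (SE 0.068, adjusted p = 0.806). The median of the 40 was 0.03 with imipramine pooled over genotypes.

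Of the nuclear subunits of the respiratory chain, 0 of 36 in complex I, 0 of 4 in complex II, 0 of 9 in complex III, 0 of 11 in complex IV and 0 of 16 in complex V passed an adjusted p of 0.05 in limma in any of the 7 comparisons. Their medians with imipramine pooled over genotypes were 0.01, 0.03, 0.03, 0.01 and 0.01 on the log2 scale, in that order. The smallest unadjusted p among them over all comparisons was that of Ndufv3, a complex I subunit, which was 0.12 lower (SE 0.057, unadjusted p = 0.0422, adjusted p = 0.999) in Brd1+/- mice pooled over treatments. Atp5f1, of ATP synthase, was 0.13 higher (SE 0.068, unadjusted p = 0.0569) with imipramine pooled over genotypes, and Cox4i1, of complex IV, 0.35 lower (SE 0.17, unadjusted p = 0.0539) in WT mice with imipramine.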

How the data were processed

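RNA of right aCC punches was sequenced by the submitters on BGISEQ-500 as single-end reads, which, by the submitters' processing notes and the study's methods, were checked with FastQC, trimmed with Trimmomatic, aligned to GRCm38 with HISAT2 2.1.0 and quantified with StringTie 1.3.4. The deposited values are TPM made by the authors, 1 per gene and library. Column totals ran from 999727 to 999889. No column was left unmatched (0 columns). Strand use, multi-mapping and selection of RNA are not given in the sources used here, and TPM hold no depth, so no counting error was computed.

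TPM were transformed as log2(TPM + 0.5). A gene entered the test if 8 or more of 36 libraries reached 0.1 TPM (25572 genes). limma 3.58.1 in R 4.3.3 gave two-sided empirical Bayes tests with a mean trend, p-values were adjusted by Benjamini-Hochberg across the genes of each of 7 comparisons, and single members were compared by two-sided exact permutation tests. This step was checked on simulated data. The labels number the replicates without naming animals, so p-values measure the spread between libraries. Sums and ratios over members have no test. Coordinates and sequences came from the GENCODE annotation and transcripts of GRCm38, and nuclear copies from blastn 2.17.0. Computation used Python 3.11.15, numpy 2.4.6, pandas 2.3.3 and matplotlib 3.10.9.

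The members, lists and tests were chosen with earlier results of these data known. All members could be named, and each comparison names those past an adjusted p of 0.05 or else the 3 with the smallest p; tRNAs are otherwise given by range with the 5 highest. From the lists, the genes with the smallest p were named. The alternatives were pseudocounts of 0.1 and 1, no filter, a filter on means under 1 TPM, quantile normalization, scaling by median ratios, rescaling to the nuclear total, cell type scores as covariates, a replicate block, a fit of all 36 libraries and leaving out libraries.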

Additional observations from a re-analysis of the deposited data

Results flagged for a closer look

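Among 104 checks of a measure or gene within a group, 17 had a highest or lowest library far from the others of its group, a gap that chance gives in about 1 of 20 groups. Of these, 9 belonged to Brd1+/- vehicle replicate 7: log2 ratios of mRNA to rRNA of 3.52 (others 3.97 to 4.27), of tRNA to mRNA of -4.26 (others -4.57 to -4.45) and of mt-Nd5 to mt-Co3 of -1.68, and levels of mt-Rnr1 (10867 TPM), mt-Rnr2 (7993 TPM), mt-Co3 (19946 TPM), mt-Nd3 (3926 TPM), mt-Nd4l (4775 TPM) and mt-Nd5 (6242 TPM).

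Brd1+/- IMN replicate 6 was highest of its group in mt-Nd2 (20087 TPM, others 16402 to 17823) and mt-Tm (1284 TPM, others 741 to 998). WT IMN replicate 8 was highest in mt-Co3 (17903 TPM, others 13739 to 15719) and mt-Ts1 (1870 TPM, others 818 to 1341), and WT IMN replicate 1 in mt-Nd4 (21402 TPM, others 13338 to 17392). WT IMN replicate 7 was lowest in mt-Te (2442 TPM, others 2886 to 3294), WT vehicle replicate 7 lowest in mt-Atp6 (20912 TPM, others 24302 to 26602), and Brd1+/- IMN replicate 8 highest in mt-Nd6 (19500 TPM, others 15433 to 17298).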

How the results depend on the processing

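In all 7 comparisons, 0 members passed an adjusted p of 0.05 under each alternative run, including the replicate block and each library left out. The numbers of members at an unadjusted p under 0.01 moved: for imipramine in WT mice from 3 to 1 with the replicate block and to between 2 and 3 without single libraries, and for imipramine pooled over genotypes from 1 to between 0 and 3. Without Brd1+/- vehicle replicate 7 the vehicle comparison of the genotypes had 1 such member, and without Brd1+/- IMN replicate 6 the interaction had 1. All 741 alternative values of the named members kept their direction. The share and ratios moved by less than 1 SD between libraries under each alternative, but small differences could turn or shrink: the difference in share between the genotypes was 0.09 points without WT vehicle replicate 7 under vehicle (0.50 with it) and 0.09 points without WT IMN replicate 7 under imipramine (0.49 with it), and the interaction in the mRNA to rRNA ratio was 0.02 and lay between -0.04 and 0.07 without single libraries. With the nuclear copies added, the difference in share with imipramine pooled over genotypes was 1.32 points (SE 0.81) against 0.98 (SE 0.55), and 1.05 with the replicate block. Same-numbered libraries did not deviate together on average (mean r from -0.05 to -0.01 in the 4 pairwise comparisons). The largest r of a pair was 0.26, in the comparison of the genotypes under imipramine. These values cannot tell whether the numbers mark litters or days. Depth is not recorded in TPM, which limits statements on tRNA genes of low TPM such as mt-Ts2. The same limit holds for mt-Th, mt-Tv and mt-Tl2, which had the smallest p-values with imipramine in WT mice.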

Other observations

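Nuclear genes also followed the balance of mt-Nd5 and mt-Co3 across libraries, a search added after that balance was seen. Among 12487 nuclear genes that averaged 5 TPM or more (group means subtracted, n = 36), the highest r of a gene that is no copy of a member was that of Gucy1a2 (0.90), a subunit of soluble guanylate cyclase, followed by Dok6 (0.87). The lowest were those of Gm8430 (-0.85), Atp5l-ps1 (-0.85) and Ndufs6 (-0.84), a nuclear subunit of complex I, and the median over all genes was 0.01.

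Against the summed mRNA level, the lowest r were those of Rtcb (-0.90), an RNA ligase, and Ptcd1 (-0.86), a pentatricopeptide protein of mitochondria, named after their values were seen. The mitochondrial share and the score of 40 nuclear genes of mitochondrial expression had r = -0.79 (rho -0.75, and -0.68 without the 2 most distant libraries; n = 36). The share is part of the total to which all TPM are scaled, so a negative r is partly built in, and its size beyond that was not tested.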
